A study of Mus musculus with 8 samples.

Results

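Granzymes are serine proteases that killer lymphocytes store in cytoplasmic granules, and perforin is the pore-forming protein that lets them into a target cell. The 10 genes described are those listed in the deposited tables as Gzma, Gzmb, Gzmc, Gzmd, Gzme, Gzmf, Gzmg, Gzmk, Gzmm and Prf1, that is 9 granzymes and perforin, of 25078 gene rows in all. All 10 are accounted for. A further granzyme gene by name, Gzmn, had no count in any library and is not among the 10. After transfer into an allogeneic host, donor T cells that recognise host antigen become effector cells, and granule killing by granzymes and perforin is among the ways by which they damage host tissue in graft-versus-host disease and kill leukemia cells. Granzyme B cleaves substrates after aspartate and triggers apoptosis, whereas granzymes A and K are tryptases that cleave after basic residues. Granzyme M cleaves after methionine or leucine, and granzymes C to G are mouse proteins encoded beside granzyme B.

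The libraries were made from donor T cells of the spleen, sorted as CD4 or CD8 T cells on day 6 after hematopoietic cell transplantation (HCT). The donors were C57BL/6 mice, either WT or STAT3ko, in which a floxed Stat3 allele is deleted by a Cre transgene under Cd4 regulatory sequences, so that the deletion covers both CD4 and CD8 T cells. All recipients were lethally irradiated WT BALB/c mice that also received T cell-depleted bone marrow of WT C57BL/6 donors. No group without transplantation was compared. Both genotypes were sampled in both subsets, which gives 4 groups of 2 libraries, and each library pooled cells of several recipients. P values therefore measure the spread between pools, and nothing in the labels shows whether the pools came from separate transplantations. Ages are not given in the sources used here.

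The libraries held between 20171396 and 23282757 counts, and a floor of 3 counts (what a gene without a count may still hold) equalled 0.126 to 0.150 CPM (TMM-scaled counts relative to library size, the unit of all levels below unless RPKM is named). Stat3 had 428 to 436 CPM in the 4 WT libraries and 120 to 143 CPM in the 4 STAT3ko libraries. Cd4 had 28791 to 35057 counts in the CD4 libraries and 24 to 181 counts in the CD8 libraries, while Cd8a had 16987 to 23356 counts in the CD8 libraries and 34 to 350 counts in the CD4 libraries. Cd8b1 had 20830 to 24878 counts in the CD8 libraries and 333 to 789 counts in the CD4 libraries. The part of CD8 T cells in the levels of the CD4 libraries was not tested. Same-numbered libraries of the 4 groups deviated together from their group means, so the fit with the replicate number as a block is given beside each STAT3ko result whose call it changed. Intervals and limits cover counting error only.

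Of the 10 genes, 7 passed the filter on low counts and were tested, among 12428 genes (filterByExpr, minimum count 10). Gzmd had 2 counts in 1 WT CD8 library and none elsewhere, Gzme had at most 3 counts in any library, and Gzmg had none in all 8 libraries. Gzmf passed through the WT CD8 libraries alone, where it had 25 and 28 counts. In WT T cells the levels per length (RPKM, authors' values) ran in the order Gzmb, Gzma, Prf1, Gzmk, Gzmc, Gzmm and Gzmf in CD4 as in CD8 T cells, and both libraries of each gene lay above both of the next. The plot of levels by library shows all tested members.

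**Figure D1:**
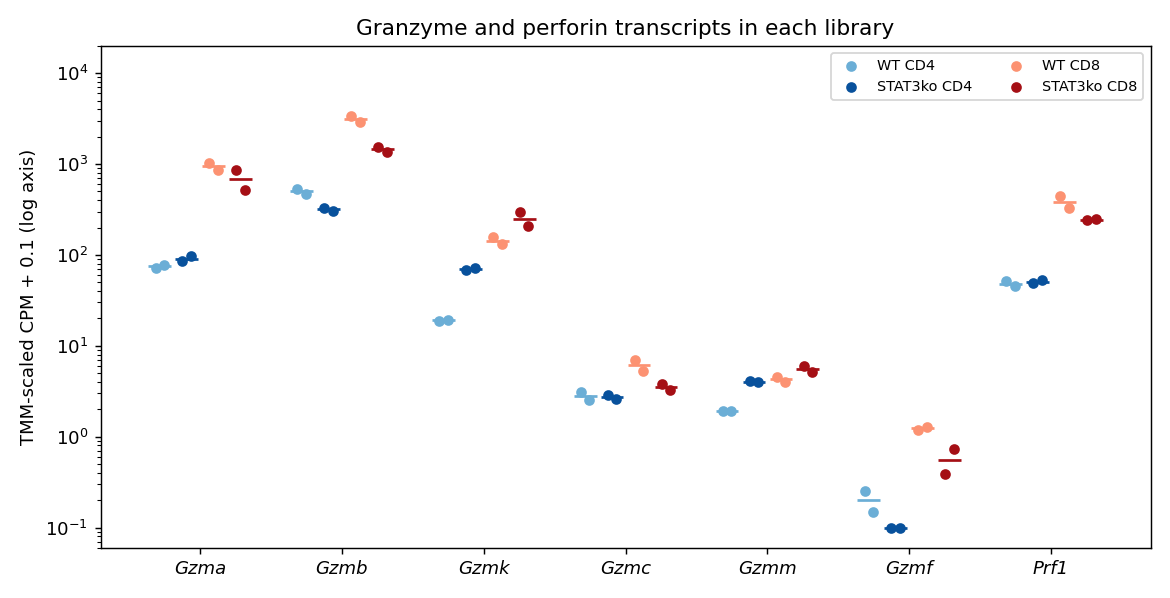
TMM-scaled CPM plus 0.1 (log axis) of the 7 tested genes in the 8 libraries, 2 points per group with a line at their mean. Gzmb reached 3384 and 2914 CPM in WT CD8 T cells against 1557 and 1355 CPM in STAT3ko CD8 T cells, whereas Gzmk lay higher in both STAT3ko groups than in the matching WT group.

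To show what the genes share outside the RNA measurement, the bases just before their start sites were read from the RefSeq promoter table (GRCm38.p6, the assembly also named mm10), which held all 10 genes. Each window covers 235 bases, from 250 to 16 bases before the start of the gene in the deposited tables, and lies on the strand of the gene (the annotation used, GENCODE M21, places no exon in any of them). That annotation extends Gzmk from 113171608 to 113225908, so the Gzmk window lies inside the gene as annotated there and not before it. The sequences shown are those of the 4 abundant members, which the results turn on, and of Gzmc and Gzmf, which stand for the low members of the granzyme B cluster. Capitals mark matches, on either strand, to TGTGGT (the core bound by RUNX factors), TGACGT (a core of cyclic AMP response elements), TGANTCA (AP-1), GGTGTG (the core bound by T-box factors) or TTCNNNGAA (the core bound by STAT dimers).
Gzmb: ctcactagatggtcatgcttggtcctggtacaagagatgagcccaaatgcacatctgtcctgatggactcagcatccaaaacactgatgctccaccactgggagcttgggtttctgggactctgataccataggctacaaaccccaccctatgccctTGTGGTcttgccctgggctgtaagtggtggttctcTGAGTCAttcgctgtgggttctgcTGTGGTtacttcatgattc
Gzma: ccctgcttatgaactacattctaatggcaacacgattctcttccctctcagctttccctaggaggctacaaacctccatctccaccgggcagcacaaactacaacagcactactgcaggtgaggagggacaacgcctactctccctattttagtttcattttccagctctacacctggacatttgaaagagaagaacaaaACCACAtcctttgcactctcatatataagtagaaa
Gzmk: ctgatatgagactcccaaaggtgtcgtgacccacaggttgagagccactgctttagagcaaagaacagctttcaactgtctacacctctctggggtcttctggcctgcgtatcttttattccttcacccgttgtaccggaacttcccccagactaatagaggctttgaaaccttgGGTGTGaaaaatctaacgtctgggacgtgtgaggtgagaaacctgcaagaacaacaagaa
Prf1: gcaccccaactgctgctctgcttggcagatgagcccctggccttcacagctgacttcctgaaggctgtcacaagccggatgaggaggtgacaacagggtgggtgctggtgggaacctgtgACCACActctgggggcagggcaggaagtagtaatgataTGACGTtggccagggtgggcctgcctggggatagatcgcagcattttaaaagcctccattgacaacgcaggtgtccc
Gzmc: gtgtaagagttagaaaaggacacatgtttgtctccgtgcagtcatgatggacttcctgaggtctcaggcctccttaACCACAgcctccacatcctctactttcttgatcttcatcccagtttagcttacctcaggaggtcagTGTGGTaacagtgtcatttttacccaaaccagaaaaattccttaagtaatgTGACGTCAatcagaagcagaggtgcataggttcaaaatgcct
Gzmf: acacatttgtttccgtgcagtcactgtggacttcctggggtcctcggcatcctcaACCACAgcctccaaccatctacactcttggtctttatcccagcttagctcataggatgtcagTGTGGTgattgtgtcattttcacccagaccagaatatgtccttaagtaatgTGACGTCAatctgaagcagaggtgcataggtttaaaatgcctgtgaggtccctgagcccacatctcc

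The Gzmb window is chr14:56262350-56262584 (minus strand), the Gzma window chr13:113100997-113101231 (minus strand), the Gzmk window chr13:113180981-113181215 (minus strand), the Prf1 window chr10:61297586-61297820 (plus strand), the Gzmc window chr14:56234673-56234907 (minus strand) and the Gzmf window chr14:56211423-56211657 (minus strand). TGTGGT was found in 9 of the 10 windows, in all but that of Gzmk, and in 13.4% of 32841 windows of this length over all genes with such a sequence. The Gzmb window holds it on both sides of its TGANTCA match, at bases 93 to 88 and 34 to 29 before the start. TGACGT was found in 4 of 10 windows (Gzmc, Gzmf, Gzmg and Prf1; 5.87% of all windows), and in Gzmc, Gzmf and Gzmg matches on both strands overlap. TGANTCA was found in Gzmb alone (6.48% of all windows), GGTGTG in Gzmk alone (15.4%) and TTCNNNGAA in Gzmm alone (6.62%). The windows of Gzmc to Gzmg are related in sequence and do not count as separate cases: Gzmc and Gzmf were identical at 70.6% of aligned positions, and Gzmd and Gzme at 94.9%. A match describes the letters and is not a binding site, and a window without a match says nothing of the factor.

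CD8 T cells held far more granzyme and perforin mRNA than CD4 T cells. In WT T cells each of the 7 tested genes was called higher in CD8 than in CD4 T cells (edgeR quasi-likelihood F test, adjusted p under 0.05 after Benjamini-Hochberg correction over all genes tested, two-sided), against 12.2% of all tested genes called in that direction; Gzmf had to differ here, since it passed the filter through the WT CD8 libraries. The largest log2 fold change among the 6 others was that of Gzma (3.67 ± 0.24 SE, adjusted p = 0.000134 by edgeR), a 12.7-fold difference, followed by Prf1 (3.00, SE 0.16), Gzmk (2.93, SE 0.19) and Gzmb (2.65, SE 0.13). Gzmm and Gzmc differed least (1.21, SE 0.22 and 1.14, SE 0.25), and the call of Gzmc was lost without WT CD4 replicate 2 or without WT CD8 replicate 1. The 53 counts of Gzmf in the WT CD8 libraries against 4 in the WT CD4 libraries gave a ratio of 11.7 (95% counting interval 4.29 to 44.3), and its call was lost without the same libraries.

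In STAT3ko T cells, 5 of the 7 tested genes were called higher in CD8 than in CD4 T cells, against 5.84% of all tested genes. These were Gzma (log2 fold change 2.92, SE 0.24), Prf1 (2.27, SE 0.16), Gzmb (2.19, SE 0.12), Gzmk (1.84, SE 0.18) and Gzmf. Gzmf had no count in the STAT3ko CD4 libraries and 6 and 14 counts in the STAT3ko CD8 libraries, which is at least 3.24-fold higher against a floor of 3 counts per library. None of the 7 was called lower, against 6.67% of all tested genes, and the CD4 and CD8 libraries did not overlap for any of the 7 in either genotype, as for 59.3% of all tested genes in WT and 58.3% in STAT3ko T cells. For Gzmm and Gzmc the difference did not pass the test (0.47 ± 0.21 SE, adjusted p = 0.192 by edgeR and 0.39 ± 0.25 SE, adjusted p = 0.371 by edgeR).

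Granzyme B was lower without STAT3 in both subsets. In CD8 T cells Gzmb (chromosome 14, 56258836 to 56262334, minus strand, mm10) had 3384 and 2914 CPM in WT and 1557 and 1355 CPM in STAT3ko libraries, so that the groups were far apart. The mean level fell from 3149 ± 332 to 1456 ± 143 CPM (SD, n = 2 per group), which is 2.16-fold lower (log2 fold change -1.11 ± 0.12 SE, adjusted p = 0.0119 by edgeR). CD4 libraries held 533 and 469 CPM with WT and 331 and 308 CPM with STAT3ko T cells, a 1.57-fold lower level (-0.65 ± 0.12 SE, adjusted p = 0.0142 by edgeR). Ranked by RPKM among all genes, Gzmb stood at places 7 and 10 in the WT CD8 libraries and at places 26 and 30 in the STAT3ko CD8 libraries. In CD4 T cells it moved from places 108 and 134 to places 207 and 235. The call in CD8 T cells was lost when any of the 4 CD8 libraries was left out (edgeR adjusted p between 0.0518 and 0.0901), and the call in CD4 T cells was lost without either STAT3ko CD4 library (edgeR adjusted p = 0.0655 and 0.109), with no change of direction in any of these fits.

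Granzyme K was higher without STAT3, and this passed the test in CD4 T cells. The Gzmk gene lies on the minus strand of chromosome 13 (113171630 to 113180965). Its level was 18.8 and 19.0 CPM in WT and 67.5 and 72.7 CPM in STAT3ko CD4 T cells. Both STAT3ko libraries were above both WT libraries, and replicates of a group lay close together. It rose 3.70-fold (log2 fold change 1.89 ± 0.18 SE, adjusted p = 0.00153 by edgeR). This call held in each of 18 fits, the reported one among them, in which the log2 fold change lay between 1.80 and 1.91. For CD8 T cells, Gzmk had 156 and 132 CPM in WT and 296 and 206 CPM in STAT3ko libraries, a higher level in both STAT3ko libraries that missed the threshold (0.80 ± 0.17 SE, adjusted p = 0.0635 by edgeR). DESeq2 called it there (adjusted p = 0.000993), and so did edgeR without the filter on low counts (adjusted p = 0.0190) and edgeR with the replicate block (adjusted p = 0.00305).

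Granzyme M, which is encoded on chromosome 10 (79689020 to 79695261, plus strand), was low throughout. Its level was 1.80 CPM in both WT libraries of CD4 T cells and 4.0 and 3.88 CPM in the STAT3ko ones, from 36 and 38 against 80 and 85 counts of Gzmm. It rose 2.19-fold in CD4 T cells (log2 fold change 1.13 ± 0.22 SE, adjusted p = 0.0168 by edgeR), a call that was lost without any 1 of the 4 CD4 libraries and in the fit of the 4 CD4 libraries alone (edgeR adjusted p = 0.0620). The CD8 subset held 4.41 and 3.92 CPM in WT and 5.84 and 5.10 CPM in STAT3ko libraries (0.39 ± 0.21 SE, adjusted p = 0.354 by edgeR).

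Granzyme A (chromosome 13, 113093824 to 113100981, minus strand) did not pass the test in either subset. For Gzma, CD4 T cells held 72.0 and 77.5 CPM when WT and 84.9 and 96.1 CPM when STAT3ko (log2 fold change 0.28 ± 0.22 SE, adjusted p = 0.486 by edgeR). The CD8 libraries held 1038 and 865 CPM in WT and 851 and 519 CPM in STAT3ko libraries (-0.47 ± 0.22 SE, adjusted p = 0.296 by edgeR). The STAT3ko CD8 libraries differed more from each other than the lower WT library differed from the higher STAT3ko library.

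Perforin did not pass the test in either subset. Prf1 (chromosome 10, 61297836 to 61304263, plus strand) stood at 51 and 45.4 CPM in CD4 T cells of WT and at 48.8 and 52.7 CPM in those of STAT3ko donors, which overlap (log2 fold change 0.07 ± 0.15 SE, adjusted p = 0.810 by edgeR). CD8 T cells held 446 and 328 CPM in WT and 242 and 246 CPM in STAT3ko libraries, 1.59-fold lower, which missed the threshold (-0.67 ± 0.15 SE, adjusted p = 0.0717 by edgeR). DESeq2 called it in CD8 T cells (adjusted p = 0.00193), as did edgeR without the filter (adjusted p = 0.0303) and with the replicate block (adjusted p = 0.00509).

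Of the granzyme B cluster on chromosome 14, Gzmc was low and Gzmf was close to the detection limit in most libraries. Gzmc (56231401 to 56234657, minus strand) had 6.87 and 5.14 CPM in WT CD8 and 3.71 and 3.20 CPM in STAT3ko CD8 libraries (log2 fold change -0.80 ± 0.25 SE, adjusted p = 0.136 by edgeR and 0.0192 with the replicate block). Its 4 CD4 libraries lay between 2.46 and 2.99 CPM and overlapped. Gzmf (56205263 to 56211407, minus strand) had 25 and 28 counts in WT CD8 and 6 and 14 counts in STAT3ko CD8 libraries, a ratio of 2.50 of WT to STAT3ko (95% counting interval 1.47 to 4.41) that did not pass the edgeR test (adjusted p = 0.283). CD4 T cells held 3 and 1 counts in WT and none in STAT3ko libraries, too few for a fold change. Of windows of 51 bases, the read length, 19.0% in the Gzmf transcript and between 19.1% and 21.1% in those of Gzmd, Gzme and Gzmg occur in another gene as well, against 3.79% in Gzmc and none in Gzma, Gzmb, Gzmk, Gzmm and Prf1. Counts of Gzmd to Gzmg are uncertain to that extent, and Gzmf also shares exon bases with the antisense gene Gm4022.

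**Figure D2:**
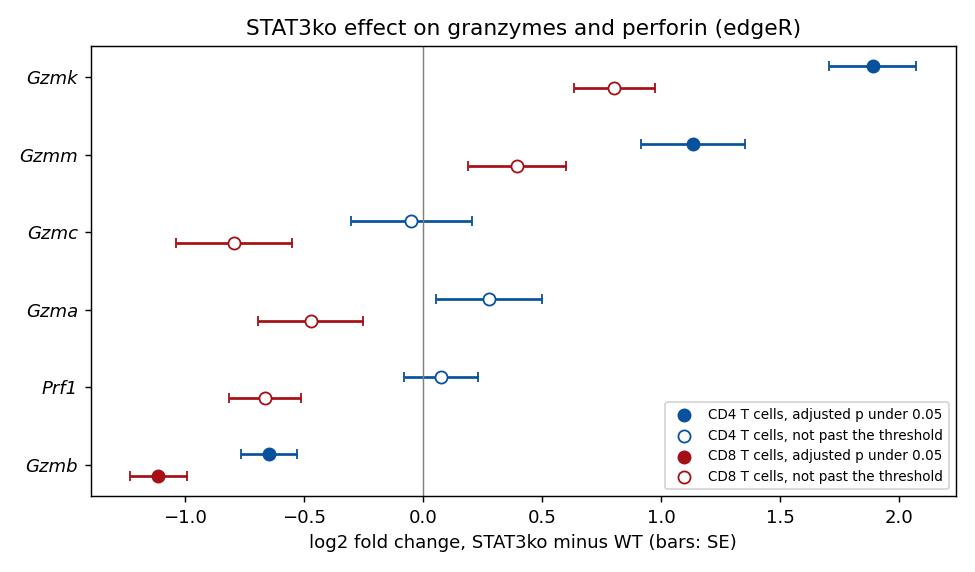
Log2 fold change of STAT3ko minus WT (x axis, bars 1 SE) for 6 genes in CD4 and CD8 T cells from the fit of all 8 libraries, with filled points where the edgeR adjusted p was under 0.05. Gzmb lay below 0 in both subsets (-0.65 and -1.11) and Gzmk above 0 in both (1.89 and 0.80).

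Read together, 3 of the 7 tested genes were called in CD4 T cells (Gzmk and Gzmm higher, Gzmb lower), against 11.6% of all genes tested (6.54% higher and 5.08% lower). In CD8 T cells 1 of 7 was called (Gzmb lower), against 2.07% of all genes (1.34% higher and 0.732% lower). With the replicate block the same 3 genes were called in CD4 T cells, against 30.1% of all genes, and 4 of 7 in CD8 T cells (Gzmk higher, Gzmb, Prf1 and Gzmc lower), against 18.2%. The WT and STAT3ko libraries did not overlap for 5 of 7 genes in CD4 T cells (Gzmf with at most 3 counts among them) and for 7 of 7 in CD8 T cells (where the filter favoured Gzmf, which passed through the WT CD8 libraries); in groups of 2 this held for 53.5% and 49.7% of all genes tested. The difference of the STAT3ko effect between CD8 and CD4 T cells was lower than 0 for 6 genes, with Gzmk at -1.09 (SE 0.25, edgeR adjusted p = 0.261) and Prf1 at -0.74 (SE 0.22, edgeR adjusted p = 0.363). In the edgeR fit of group means none of the 7 genes passed this test, nor did any other gene (0% of 12428; 982 genes had an unadjusted p under 0.05). DESeq2 called 188 genes, Gzmk among them (adjusted p = 0.00856), and edgeR without the filter called 44 genes and none of the 7. With the replicate block edgeR called 403 genes, among them Gzmk (adjusted p = 0.0150), Prf1 (adjusted p = 0.0471) and Gzmb (adjusted p = 0.0495).

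Gzmb made up less, and Gzmk more, of granzyme and perforin mRNA in each STAT3ko library than in either WT library of the same subset. As a share of the summed RPKM of the 10 genes, Gzmb made up 73.3% and 70.3% in the WT CD4 libraries and 53.9% and 49.7% in the STAT3ko CD4 libraries. In CD8 T cells its share was 59.1% and 60.3% in WT and 43.1% and 49.8% in STAT3ko libraries. Gzmk made up 3.54% and 3.91% in WT CD4 libraries against 15.1% and 16.1% in STAT3ko CD4 libraries. Its share in CD8 T cells was 3.73% and 3.74% in WT against 11.2% and 10.4% in STAT3ko libraries, so that WT CD4 and WT CD8 T cells held nearly the same share of Gzmk at levels of RNA that differed several-fold. Prf1 kept between 4.92% and 6.65% in all 8 libraries.

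**Figure D3:**
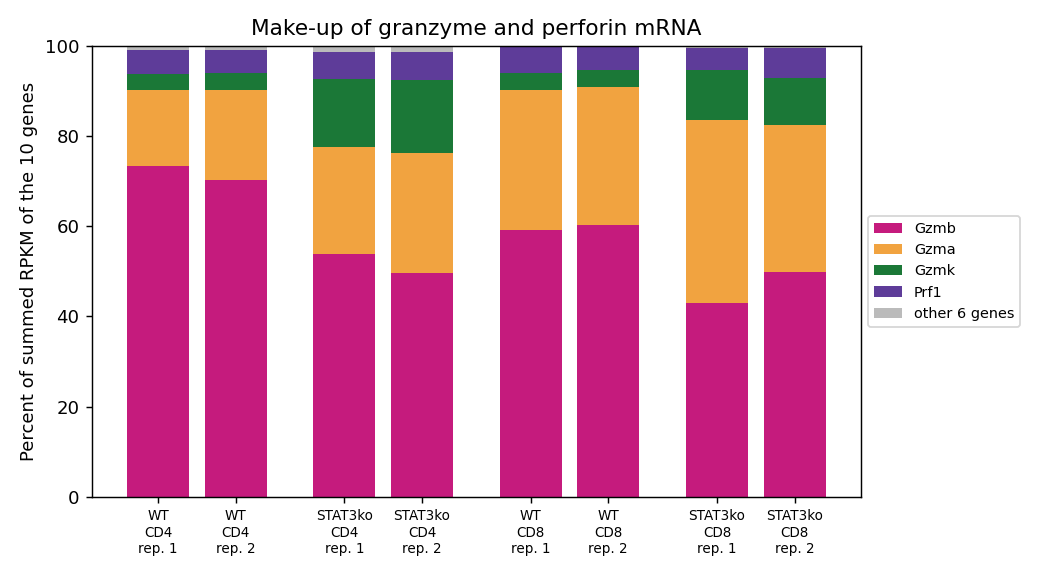
Share of each gene in the summed RPKM of the 10 genes (y axis, percent) in the 8 libraries, with the 6 low genes in grey. Gzmb fell short of its WT share in each STAT3ko library (43.1% to 53.9% against 59.1% to 73.3%), and Gzmk took 10.4% to 16.1% there against 3.54% to 3.91% in WT libraries.

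Expressed as a ratio of RPKM values, WT libraries held 4.83 and 5.56 units of Gzmk per 100 of Gzmb in CD4 and 6.30 and 6.20 in CD8 T cells. STAT3ko libraries held 27.9 and 32.3 in CD4 and 26.1 and 20.8 in CD8 T cells. The means differed 5.80-fold in CD4 and 3.75-fold in CD8 T cells. The ratio of Gzmk to Prf1 passed from 68.6 and 78.0 per 100 in WT CD4 to 258 and 257 per 100 in STAT3ko CD4 libraries, and from 65.0 and 74.9 to 228 and 156 per 100 in CD8 T cells. Gzmk therefore stood above Prf1 in both libraries of each STAT3ko group and below it in both libraries of each WT group. With 2 libraries against 2, a two-sided exact permutation test of such a ratio cannot go below p = 0.333, and none is given. In STAT3ko CD8 T cells the RPKM ranges of Gzmb (875 to 1022) and Gzma (576 to 959) overlapped, so that the order of these genes was not separated, nor was that of Gzmc and Gzmm in either STAT3ko group.

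The sum over the 10 genes was 477 and 445 RPKM in WT CD4, 401 and 399 RPKM in STAT3ko CD4, 3783 and 3146 RPKM in WT CD8, and 2373 and 1757 RPKM in STAT3ko CD8 libraries. It was lower in the STAT3ko libraries of both subsets, with no overlap. In such bulk samples, fewer cells that express a gene and less RNA of it per cell cannot be told apart.

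Across the 8 libraries, the genes fell into patterns that can be described by the correlation of log2 CPM, with the caution that the points share 4 groups and that no test is given. Gzma and Prf1 ran closest together (Pearson r = 0.989), followed by Gzmb and Gzmf (0.971), Gzmk and Gzmm (0.969) and Gzmb and Prf1 (0.968), while Gzmb and Gzmm had r = 0.471. Among all genes tested, those most like Gzmb were Snx9 (0.996), Stk24 (0.994), Dennd3 (0.994) and Serpinb1a (0.992). Those most like Gzma were Itgax (0.994), which encodes the integrin CD11c, Lgals3 (0.994), which encodes galectin-3, Pdap1 (0.993) and Cuedc2 (0.993). Nrgn (0.995), Itgax (0.993), Pdap1 (0.991) and Nup93 (0.991) were those most like Prf1.

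Genes that pack and process granule proteins changed in both directions in CD4 T cells. Of 15 such genes, 4 were called higher and 1 lower in STAT3ko CD4 T cells, against 6.54% and 5.08% of all genes, and none in CD8 T cells, against 2.07%. With the replicate block 5 were called higher and 4 lower in CD4 T cells, against 30.1% of all genes in either direction. In CD8 T cells it called 2 lower, against 18.2%. Ctsc, the dipeptidyl peptidase that activates granzymes, rose from 166 and 156 to 271 and 287 CPM in CD4 T cells (log2 fold change 0.79 ± 0.11 SE, adjusted p = 0.00589 by edgeR). Nkg7, which encodes a granule membrane protein, rose by 0.81 (SE 0.12), and so did Ctsd (0.49, SE 0.10), a lysosomal protease, and Igf2r (0.48, SE 0.12), a receptor that sorts proteins to lysosomes, while Ctsl, another lysosomal protease, fell by 0.91 (SE 0.22). Srgn, the proteoglycan that holds granzymes in the granule, lay between 1239 and 1725 CPM in the CD4 libraries and between 537 and 717 CPM in the CD8 libraries. It was thus lower in WT CD8 than in WT CD4 T cells (-1.43 ± 0.15 SE, adjusted p = 0.000543 by edgeR), the opposite direction to the tested granzymes. Of 16 genes of granule release, 14 were tested and Stx11, a SNARE protein needed for granule fusion, was the only one called in a STAT3ko comparison (-0.92, SE 0.15, in CD4 T cells). With the replicate block Sytl2, which encodes a granule tethering protein, was also called in CD4 T cells (0.79 in that fit, edgeR adjusted p = 0.000378).

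**Figure D4:**
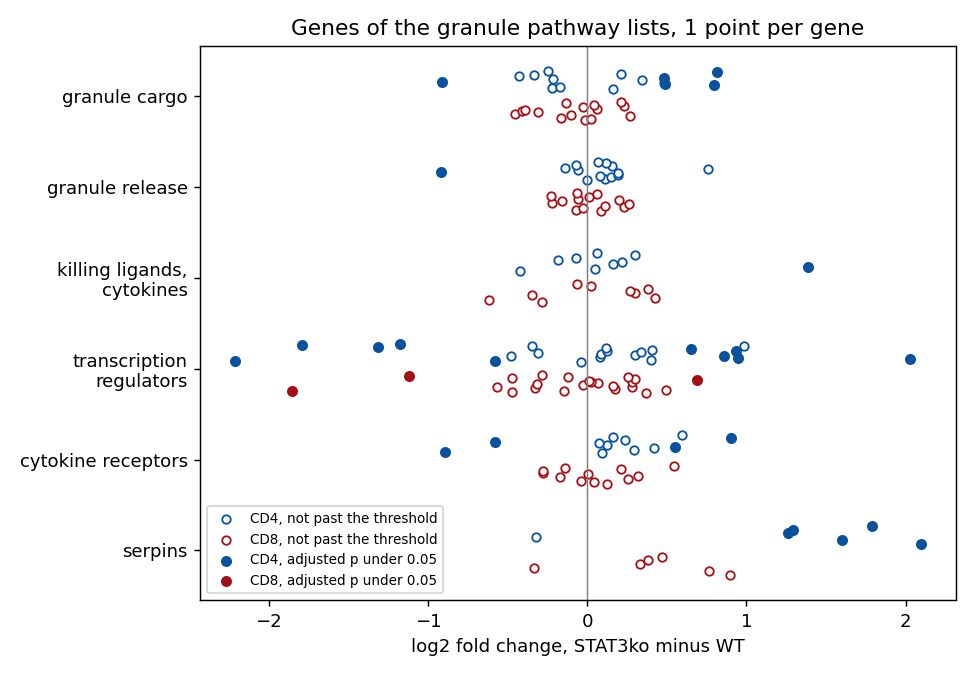
Log2 fold change of STAT3ko minus WT (x axis) for each tested gene of the 6 pathway lists, in CD4 (upper row of each list) and CD8 T cells (lower row), with filled points where the edgeR adjusted p was under 0.05. In CD4 T cells 5 of 6 serpins lay above 1.2, and in CD8 T cells none of the 6 passed the test without the replicate block.

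Serpins listed as inhibitors of granule proteases were the list with the highest called share in the STAT3ko comparison of CD4 T cells. Of the 6, 5 were called higher in STAT3ko CD4 T cells, against 6.54% of all genes, with a median log2 fold change of 1.45 over the 6 genes. Serpinb9, the inhibitor of granzyme B, stood at 342 and 301 CPM without and at 783 and 795 CPM with the Stat3 deletion in CD4 T cells (log2 fold change 1.30 ± 0.11 SE, adjusted p = 0.00114 by edgeR), a rise beside the lower Gzmb level of the same libraries. Serpinb9b rose by 1.79 (SE 0.17), Serpina3g by 1.60 (SE 0.29), Serpina3f by 2.10 (SE 0.40) and Serpinb6b by 1.26 (SE 0.13). These genes have close copies in the mouse genome, so that their counts may be divided between copies. None of the 6 passed the test in CD8 T cells (median 0.43), and Serpinb9 had 823 and 726 CPM in WT and 967 and 1054 CPM in STAT3ko libraries (0.38 ± 0.11 SE, adjusted p = 0.123 by edgeR). With the replicate block all 6 were called in CD8 T cells, 5 higher (Serpinb9 at edgeR adjusted p = 0.0201) and Serpinb6a lower, against 18.2% of all genes. Serpinb6a was called lower in CD4 T cells too, where the block called 30.1% of all genes.

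Of 9 other killing ligands and cytokines, Fasl, the death receptor ligand, was the only one called in a STAT3ko comparison. Its level in CD4 T cells was 45.5 and 40.8 CPM (WT) and 83.4 and 142 CPM (STAT3ko; log2 fold change 1.39 ± 0.24 SE, adjusted p = 0.0114 by edgeR). Ifng, which encodes interferon-γ, differed more between replicates than between genotypes (0.16 ± 0.29 SE, adjusted p = 0.780 by edgeR in CD4 and -0.35 ± 0.29 SE, adjusted p = 0.590 by edgeR in CD8 T cells). Fitted with the replicate block in edgeR, Ifng was called lower in CD8 T cells (adjusted p = 0.0211), as were 18.2% of all genes in either direction. Cd40lg, which encodes CD40 ligand, was called lower in CD4 T cells (-0.42, edgeR adjusted p = 0.00993), where the block called 30.1% of all genes.

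Transcription regulators known from granzyme and perforin control changed in both directions. In CD4 T cells 5 of 23 tested genes were called higher and 5 lower in STAT3ko, against 6.54% and 5.08% of all genes, and in CD8 T cells 1 and 2, against 1.34% and 0.732%. With the replicate block 8 were called higher and 7 lower in CD4 T cells, against 30.1% of all genes in either direction. In CD8 T cells it called 5 higher and 6 lower, against 18.2%. Eomes, the T-box factor of killer cells, was at 3.74 and 2.27 CPM in WT and at 13.5 and 11 CPM in STAT3ko cells of the CD4 subset (log2 fold change 2.03 ± 0.29 SE, adjusted p = 0.00551 by edgeR). Prdm1, which encodes the effector regulator Blimp-1, rose by 0.94 (SE 0.19), Hopx, a homeodomain cofactor, by 0.95 (SE 0.10) and Ikzf3, which encodes Aiolos, by 0.86 (SE 0.13) in CD4 T cells. Bcl6, the repressor opposed to Blimp-1, fell by 2.21 (SE 0.24) in CD4 and by 1.85 (SE 0.28) in CD8 T cells, and Tcf7, which encodes the stem-like and memory factor TCF-1, fell by 1.79 (SE 0.17) and by 1.12 (SE 0.16). Zeb2, a zinc-finger factor of terminal effector cells, fell by 1.17 (SE 0.27) in CD4 T cells. Stat5a fell by 1.32 (SE 0.10) in CD4 T cells and neighbours Stat3 on chromosome 11. Tbx21, which encodes T-bet, was at 112 and 46.7 CPM in WT and at 183 and 132 CPM in STAT3ko CD4 T cells and did not pass the test (0.98 ± 0.48 SE, adjusted p = 0.233 by edgeR), but was called with the replicate block (adjusted p = 0.000691).

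Of 12 receptors for cytokines that induce granzymes, Il2rb, the β chain shared by the interleukin-2 and interleukin-15 receptors, rose from 822 and 735 to 1434 and 1484 CPM in CD4 T cells (log2 fold change 0.91 ± 0.10 SE, adjusted p = 0.00217 by edgeR), and Il15ra rose by 0.55 (SE 0.12). Ifnar2, a chain of the type I interferon receptor, fell by 0.89 (SE 0.16) and Il21r, the interleukin-21 receptor, fell by 0.58 (SE 0.11) there. Of the 12, 4 were called in CD4 T cells and none in CD8 T cells, against 11.6% and 2.07% of all genes. These counts were 6 and 3 with the replicate block, against 30.1% and 18.2% of all genes. Over these lists other than the serpins, the median log2 fold change lay between -0.03 and 0.20, beside 0.02 in CD4 and -0.01 in CD8 T cells over all genes tested.

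Of the genes beside the members, those called lay in both directions on chromosomes 13 and 14, and those called around Gzmm were lower. On chromosome 13, Esm1 encodes the proteoglycan endocan, and its lowest coordinate lies 38029 bases from that of Gzmk, a minus-strand gene. Esm1 was at 24.5 and 42.9 CPM in WT and at 3.20 and 3.70 CPM in STAT3ko cells of the CD4 subset (log2 fold change -3.28 ± 0.30 SE, adjusted p = 0.00137 by edgeR), where Gzmk rose. CD8 T cells held 30.9 and 39.2 CPM in WT and 19.0 and 15.3 CPM of Esm1 in STAT3ko libraries (-1.03 ± 0.26 SE, adjusted p = 0.0921 by edgeR and 0.00836 with the replicate block). Plpp1, a lipid phosphatase of the same region, was higher in STAT3ko CD4 T cells (1.85 ± 0.40 SE, adjusted p = 0.0253 by edgeR). Neighbours were genes whose lowest coordinate lay within 500 kb of that of a member. Of those tested, 2 of 9 on chromosome 13 and 2 of 26 on chromosome 14 were called in CD4 T cells. Around Gzmm 3 of 33 were called there and around Prf1 none of 10, against 11.6% of all genes tested. In CD8 T cells 0, 1, 1 and 0 were called, against 2.07% of all genes. Counted with the replicate block, the calls were 2, 6, 9 and 3 in CD4 T cells, against 30.1% of all genes. They were 1, 3, 9 and 1 in CD8 T cells, against 18.2% of all genes. The called neighbours of the chromosome 14 cluster were Ipo4 (-0.75 in CD4 T cells) and Mphosph8 (0.45 in CD4 and 0.56 in CD8 T cells). Those of Gzmm were Sbno2 (-1.33 in CD4 and -0.89 in CD8 T cells), E130317F20Rik and Cbarp (-1.41 and -1.21 in CD4 T cells). Of 13 genes listed as neighbours in these loci (mast cell and neutrophil proteases, Cfd, Gzmn and Esm1), 4 were tested and only Esm1 was called in a STAT3ko comparison.

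Markers of other cells that hold granzymes were examined beside these results. The 9 natural killer (NK) cell genes summed to 46.4 to 55.7 CPM by column total in WT CD8 and 29.1 to 34.8 in STAT3ko CD8 libraries. The sum thus moved in CD8 T cells in the direction of Gzmb. In CD4 T cells, where Gzmb was lower too, it was 26.1 to 34.7 in WT and 23.7 to 37.9 in STAT3ko libraries, which overlap. Klrb1c, which encodes NK1.1, had 13.9 to 26.2 CPM by column total and Fcer1g, an Fc receptor chain, 2.23 to 21.9, while Ncr1, which encodes NKp46, did not exceed 0.246. Klra8 and Klra4 were at 0 throughout, and Klra9 was at 0 in both STAT3ko groups. The 4 listed genes of γδ and NKT cells summed to 6.74 to 9.87 CPM in WT and 0.540 to 4.0 CPM in STAT3ko libraries. Most of the sum in WT was Il23r. None of the 4 was at 0 in both libraries of a group, but Sox13 did not exceed 0.0491 CPM and Blk did not exceed 0.133 CPM. These levels lie close to the floor of 3 counts or below it. The 8 mast cell and basophil genes summed to 2.27 to 8.97 CPM. The 10 myeloid genes summed to 46.6 to 48.1 CPM in WT CD4, 85.6 to 121 CPM in STAT3ko CD4, 121 to 142 CPM in WT CD8 and 142 to 161 CPM in STAT3ko CD8 libraries, with Itgam, which activated T cells also express, at 22.9 to 134 CPM and Siglech at 0. B cell genes summed to 102 to 184 CPM in CD4 and 38.4 to 72.0 CPM in CD8 libraries, of which Cd22 took the greater part, and erythroid genes to at most 5.38 CPM with the 4 globin genes at 0. The part of these cells in the results was not tested.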

How the data were processed

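RNA-Seq was performed on 8 libraries of donor CD4 or CD8 T cells from the spleen. Per the study's methods, the authors aligned single-end reads with STAR, counted reads per RefSeq gene (mm10) with HTSeq and worked with edgeR and TMM. The deposited files are a table of raw counts and a table of RPKM values, each with 25078 gene rows. Whether counting used the strand is not given in the sources used here. The library size behind the deposited RPKM values was 0.989 to 1.05 times the column total of the counts. The growth and treatment fields of the labels describe another cell system, the library kit differs between the labels and the methods, and neither was used. No column of either table was left without a sample (0 columns).

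The labels (genotype, cell type and title) gave the groups. Genes were filtered with filterByExpr (minimum count 10), which kept 12428 genes holding 99.96% to 99.97% of all counts. After TMM scaling (factors 0.982 to 1.03), all 8 libraries were fitted together with a mean per group in edgeR 4.0.16 under R 4.3.3, leaving 4 residual degrees of freedom. Genes were called at a two-sided adjusted p under 0.05 in the quasi-likelihood F test. Standard errors were derived from the F statistic. The STAT3ko effect in each subset, its difference between subsets, and CD8 against CD4 T cells in each genotype were tested, and comparisons that share libraries are not independent. Levels between genes were compared in RPKM. Marker sums are CPM by column total.

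The script was tested on simulated data. The labels name no batch shared by same-numbered libraries, but their deviations from the group means correlated across 12428 genes (r between 0.424 and 0.671 over the 6 pairs of groups), and on this the numbers were taken to pair the libraries. Alternatives were DESeq2 1.42.0, limma 3.58.1 on log2(RPKM + 1) and log2(RPKM + 0.1), RLE size factors, total counts, no filter, the 4 libraries compared alone, the replicate number as a block, the low cluster genes summed, and each library left out in turn. The members and the gene lists were chosen with earlier results of these data known. Named were all 10 members and the genes called in a STAT3ko comparison (at most 4 per list and comparison, by size of change). With them stood 8 fixed genes (Srgn, Ctsc, Tbx21, Eomes, Prdm1, Ifng, Fasl and Serpinb9). Called neighbours within 500 kb, measured between lowest coordinates, and the 4 genes most correlated with Gzmb, Gzma and Prf1 were named too. Upstream sequences and motif matches come from the RefSeq promoter table, and identity from global pairwise alignment.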

Additional observations from a re-analysis of the deposited data

Results flagged for a closer look

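Gzma was the 1 gene of the 7 tested whose WT and STAT3ko libraries were separated in opposite directions in the CD4 and CD8 subsets. Among all tested genes, 53.5% had separated genotypes in the CD4 subset and 49.7% had them in the CD8 subset, in either direction. The share separated in opposite directions was not counted, so 1 of 7 cannot be compared with it. For Gzma, both STAT3ko CD4 libraries (84.9 and 96.1 CPM) lay above both WT CD4 libraries (72.0 and 77.5 CPM). Both STAT3ko CD8 libraries (851 and 519 CPM) lay below both WT CD8 libraries (1038 and 865 CPM). The difference of the STAT3ko effect, CD8 minus CD4, was -0.75 on the log2 scale (SE 0.31), which did not pass the edgeR test (adjusted p = 0.617, unadjusted p = 0.0448). Over 17 fits, the reported one among them, the difference lay between -1.14 and -0.43, with no call. The STAT3ko CD8 replicate 2 library held the lowest Gzma level of the CD8 libraries. The cause was not tested.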

How the results depend on the processing

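Of 536 values for single genes under the alternatives, 507 kept their direction and their side of the threshold, 15 lost and 11 gained a call, and 3 changed sign, none of them called: Gzmc in CD4 T cells was 0.014 without STAT3ko CD4 replicate 2, and 0.072 when WT CD4 replicate 1 was left out (range with 1 library left out -0.19 to 0.072), and Prf1 in CD4 T cells was -0.016 without WT CD4 replicate 2 (range -0.016 to 0.13). Members called in the STAT3ko comparison of CD8 T cells numbered 1 in the reported fit, 3 by DESeq2 and 3 without the filter, and DESeq2 called 1 for the difference between subsets. Leaving out 1 library gave 1 to 3 called members in CD4 and 0 to 1 in CD8 T cells. Over all genes, the STAT3ko comparison of CD8 T cells gave 257 calls, against 885 by DESeq2, 454 without the filter, 37 from its 4 libraries alone and 7 to 224 with 1 library left out. The comparison of CD4 T cells gave 1444 calls and 412 to 1307 with 1 library left out. CD8 against CD4 T cells gave 2960 calls in WT (1919 from its 4 libraries alone, 1546 to 2598 with 1 left out) and 1555 in STAT3ko (457 to 1554 with 1 left out). The difference between subsets gave 0 calls, against 188 by DESeq2, 44 without the filter and 13 by limma on log2(RPKM + 1). The cause of these changes was not tested. With 1 library left, a group is assumed to vary like the others. The summed low cluster genes, RLE and total counts changed no call of a member. Counts of Gzmm, Gzmc and Gzmf were low, which limits their precision.

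With the replicate number as a block, members called were 4 in CD8 T cells (1 higher, 3 lower) and 3 for the difference between subsets, and the counts over all genes were 3747 and 2258 for STAT3ko in CD4 and CD8 T cells, 5232 and 3689 for CD8 against CD4 T cells in WT and STAT3ko, and 403 for the difference. The block changed no other call of a member, and no call of a listed gene was lost with it.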
